A study of Rattus norvegicus with 6 samples.

Results

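Glutathione S-transferases (GSTs) join the tripeptide glutathione to reactive and foreign compounds, which makes these more soluble and prepares them for export from the cell. The liver is rich in these enzymes, and the cytosolic ones are sorted by sequence into classes, among them alpha, mu, pi and theta. Several GST genes are known to respond to electrophiles and oxidative stress, and carbon tetrachloride (CCl4) injures hepatocytes through radicals that cytochrome P450 makes from it. The GST genes described here were taken by symbol from a table of 19616 genes. They were 10 in number, with Gsta1, Gsta3 and Gsta4 of the alpha class, Gstm1, Gstm2 and Gstm4 of the mu class, Gstp1 of the pi class, and Gstt1, Gstt2 and Gstt3 of the theta class. A row was found for 9 of the 10. The level of Gstm2 was not analysed here, only its promoter window. Each of the 9 genes was among the 14864 genes that were tested, which averaged 0.1 FPKM or more (fragments per kilobase of transcript, scaled to the number of mapped fragments).

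RNA was sequenced from the whole livers of 6 male Sprague-Dawley rats of specific-pathogen-free grade, after removal of ribosomal RNA and with 1 library per rat. The 3 rats of the FL group, labelled fibrosis (FL2, FL5 and FL12), had received CCl4 in an equal volume of olive oil by intraperitoneal injection, at 2 mL per kg of body weight, 2 times a week for 5 weeks. The 3 rats of the CL group, labelled normal (CL5, CL6 and CL7), had received the same volume of olive oil. The rats sequenced came from larger groups, and neither their age nor how they were picked is given in the sources used here. Col1a1, which encodes a chain of type I collagen, stood at 2.12, 3.77 and 2.12 FPKM in the controls CL5, CL6 and CL7, against 17.00, 101.22 and 73.73 FPKM in the treated rats FL2, FL5 and FL12. Acta2, the smooth muscle actin of activated stellate cells, ran from 2.62 to 3.85 FPKM in controls and from 3.87 to 17.32 FPKM in treated rats. Both genes were thus higher in each FL rat than in each CL rat, and FL2 was the lowest FL rat for both.

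The question was which GST genes differ between fibrotic and control liver, and whether the classes do so alike. Gsta3 and Gstp1 were higher in the FL group, and the other 7 GST genes showed no difference that passed the test. Gsta3 rose 4.57-fold in mean FPKM and Gstp1 rose 1.91-fold. A gene was called when its adjusted p from limma was under 0.05 and its fold change at least 2. By this rule 1 of the 9 GST genes was called higher in the FL group (Gsta3) and 0 lower, against 9.29% of all genes tested called higher and 0.935% called lower. By the adjusted p alone, 2 GST genes were higher and 0 lower, against 16.9% and 1.94% of all genes. At an unadjusted p under 0.05, limma gave the same counts of 2 higher and 0 lower among the GST genes, against 31.5% and 4.04% of all genes. The groups did not overlap for 2 GST genes that were higher in the FL group and for 0 that were lower, against 35.7% and 4.78% of all genes.

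The FL group stood higher in most genes of the table. The median log2 fold change of all genes tested was 0.29, and it was 0.08 after median scaling of the rats and -0.04 after quantile normalization. The median of the 9 GST genes was 0.09, or -0.19 relative to all genes, and 7 of the 9 GST genes lay below the median of all genes. After quantile normalization the median of the GST genes was -0.010 relative to all genes, with 4 of the 9 GST genes above the median of all genes. Of the GST genes, 5 had a log2 fold change above 0 and 4 below 0 on the deposited scale, and 2 were above 0 after median scaling and 3 after quantile normalization. Both Gsta3 and Gstp1 stayed above 0 under either scaling. Relative to the median of all genes, the log2 difference was 1.92 for Gsta3 and 0.64 for Gstp1. In whole liver, a lower level can mean fewer cells that make an mRNA or less of it in each cell, and these cannot be told apart.

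**Figure D1:**
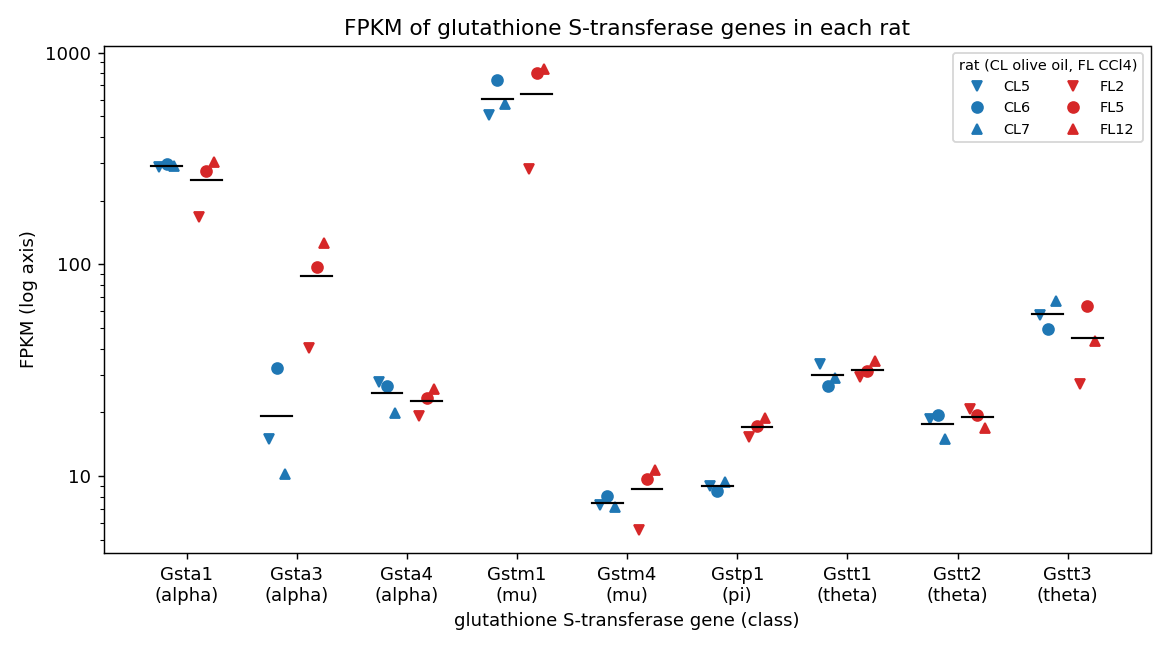
FPKM of 9 GST genes in each rat, on a log axis, with the class of each gene in brackets, CL rats in blue, FL rats in red and the mean of each group as a black bar. The FL rats lie above the CL rats for Gsta3 and Gstp1, and FL2 (red triangle pointing down) is the lowest FL rat for each gene but Gstt2.

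The alpha class holds the main GST subunits that act on organic hydroperoxides and lipid peroxidation products. Gsta3 (ENSRNOG00000056847, chromosome 9) had 14.94, 32.54 and 10.24 FPKM in the controls CL5, CL6 and CL7. The treated rats FL2, FL5 and FL12 had 40.22, 97.05 and 126.78 FPKM. The lowest FL rat, FL2, was above the highest control, CL6, and both groups were widely spread. The highest value was 3.18 times the lowest in the CL group and 3.15 times in the FL group. The log2 fold change was 2.20 with a standard error of 0.50 (adjusted p = 0.0231, limma; higher in 3 of 3 FL rats than in each CL rat). The call held in 9 of 14 alternative settings, and the adjusted p ran from 0.0106 to 0.0945 over them. It was lost without CL5 (0.0753), CL7 (0.0866), FL5 (0.0945) or FL12 (0.0832), and without a mean trend in the prior variance (0.0513), while the log2 fold change stayed between 1.84 and 2.69.

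Gsta1 (ENSRNOG00000013484, chromosome 9) was the most abundant of the 3 alpha genes. Its level was 287.96, 298.66 and 290.36 FPKM in the controls, against 167.90, 275.01 and 305.48 FPKM in the treated rats (always in the order CL5, CL6, CL7 and FL2, FL5, FL12). The CL rats lay close together, FL2 was far below them, FL5 was a little below and FL12 a little above. On the log2 scale the difference was -0.27 with a standard error of 0.23, which did not pass (adjusted p = 0.428). Without FL2 it was -0.012. Gsta4 (ENSRNOG00000030449, chromosome 8), whose enzyme is known for conjugating 4-hydroxynonenal, a product of lipid peroxidation, was 27.84, 26.77 and 19.81 FPKM in the CL rats and 19.20, 23.28 and 25.72 FPKM in the FL rats. The groups overlapped nearly over their whole range, and the log2 difference was -0.12 with a standard error of 0.17 and an adjusted p of 0.64.

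Among these 3 alpha genes, Gsta3 had a larger share of the sum in each FL rat than in each CL rat, while the sum itself overlapped between the groups. The summed FPKM of Gsta1, Gsta3 and Gsta4 was 330.74, 357.97 and 320.41 in the CL rats and 227.32, 395.34 and 457.98 in the FL rats, with means of 336 ± 19.4 and 360 ± 119 FPKM (SD, n = 3 rats each). Gsta3 made up 4.52%, 9.09% and 3.20% of that sum in the CL rats and 17.7%, 24.5% and 27.7% in the FL rats. Gsta1 was 19.3, 9.18 and 28.4 times as high as Gsta3 in the CL rats and 4.17, 2.83 and 2.41 times in the FL rats. This ratio did not overlap between the groups, and the exact two-sided permutation test over rats gave p = 0.1, the lowest value possible with 3 rats a group (0.35 after adjustment over 7 ratios within classes). The ratio of Gsta3 to Gsta4 went from between 0.517 and 1.22 in the CL rats to between 2.09 and 4.93 in the FL rats (exact permutation p = 0.1, adjusted 0.35). The ratio of Gsta1 to Gsta4 overlapped between the groups (exact permutation p = 0.6, adjusted 0.7). These ratios do not depend on how the rats are scaled by a single factor. In mean FPKM, the FL group differed from the CL group by 68.8 for Gsta3 and by -42.9 for Gsta1.

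The pi class is made up of Gstp1 in this set. Its enzyme is scarce in hepatocytes of the normal rat, is found in bile duct cells, and is a classical marker of preneoplastic foci of rat liver. Gstp1 (ENSRNOG00000018237, chromosome 1) had 9.03, 8.49 and 9.37 FPKM in the controls CL5, CL6 and CL7, against 15.33, 17.31 and 18.81 FPKM in the treated rats FL2, FL5 and FL12. All 3 FL rats were above all 3 CL rats, with narrow spreads in both groups (coefficients of variation of 4.95% and 10.2%). The log2 fold change was 0.92 with a standard error of 0.12 (adjusted p = 0.00434, limma), which is short of the 2-fold limit. The adjusted p was under 0.05 in 14 of 14 alternative settings, from 0.00334 to 0.0253, and the log2 fold change ran from 0.70 after median scaling to its highest value without FL2, where Gstp1 reached the fold limit and was called. Gstp1 made up 0.935%, 0.702% and 0.919% of the summed FPKM of the 9 GST genes in the CL rats and 2.52%, 1.30% and 1.33% in the FL rats. Its standard error was the smallest of the 9 GST genes.

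The mu class holds the most abundant of these mRNAs. Gstm1 (ENSRNOG00000029726, chromosome 2), a main mu subunit of rat liver, had 508.90, 738.77 and 570.92 FPKM in CL5, CL6 and CL7. FL2 had 281.55, FL5 had 798.54 and FL12 had 836.11 FPKM. FL2 lay below all CL rats, and FL5 and FL12 above all of them. The FL rats therefore surrounded the controls, and the log2 fold change was -0.06 with a standard error of 0.42 (adjusted p = 0.928). It turned positive after quantile normalization (0.12) and without CL6 (0.088) or FL2 (0.45). Gstm4 (ENSRNOG00000019221, chromosome 2) had the lowest level of the 9 GST genes in both groups. It was 7.27, 8.05 and 7.17 FPKM in the CL rats and 5.56, 9.70 and 10.70 FPKM in the FL rats, again with FL2 below and the other FL rats above all controls. The log2 difference of 0.15, with a standard error of 0.23 and an adjusted p of 0.667, turned negative after median scaling (-0.070) and quantile normalization (-0.099) and without FL12 (-0.027). Without FL2 it was 0.44, with an adjusted p of 0.0437, in a range over the alternatives up to 0.951. The ratio of Gstm1 to Gstm4 was 70.0, 91.8 and 79.6 in the CL rats and 50.6, 82.3 and 78.1 in the FL rats (exact permutation p = 0.6, adjusted 0.7).

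The theta class is known for acting on small halogenated compounds such as dichloromethane and on sulfate esters. Gstt1 (ENSRNOG00000049771, chromosome 20) was 33.96, 26.60 and 29.12 FPKM in the CL rats and 29.28, 31.39 and 34.89 FPKM in the FL rats. Gstt2 (ENSRNOG00000052415, chromosome 20) was 18.54, 19.52 and 15.03 FPKM in the CL rats and 20.81, 19.41 and 16.81 FPKM in the FL rats. Both genes overlapped between the groups, and their log2 differences of 0.095 and 0.11, with standard errors of 0.13 and 0.14 and adjusted p-values of 0.633 and 0.618, turned negative under median scaling (-0.13 and -0.12) and quantile normalization (-0.027 and -0.055). Gstt3 (ENSRNOG00000001242, chromosome 20) had 57.58, 49.63 and 67.33 FPKM in CL5, CL6 and CL7. FL2 had 27.36, FL5 had 63.72 and FL12 had 43.60 FPKM. FL2 and FL12 were below all controls and FL5 was among them. Its log2 fold change was -0.45 with a standard error of 0.28, which did not pass (adjusted p = 0.292, from 0.105 to 0.657 over the alternatives). Without FL2 it was -0.13. The ratio of Gstt1 to Gstt3 was between 0.432 and 0.590 in the CL rats and 1.07, 0.493 and 0.80 in FL2, FL5 and FL12, with overlap (exact permutation p = 0.3, adjusted 0.7).

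Summed over the 9 GST genes by class, only the pi class had FL rats apart from the CL rats on the deposited scale. The ratio of the FL to the CL mean of the summed FPKM was 1.07 for alpha, 1.05 for mu, 1.91 for pi and 0.905 for theta. With 1 rat left out, it ran from 0.926 without FL12 to 1.27 without FL2 for alpha and from 0.892 without FL12 to 1.35 without FL2 for mu, so that its direction turned for both, while it ran from 1.82 to 2.01 for pi and from 0.817 to 0.992 for theta. For alpha and mu it fell below 1 after median scaling (0.908 and 0.892) and was 1.16 and 1.24 after quantile normalization, and for pi it was 1.63 and 1.66. These sums leave out further GST genes of the table. With Gsta2 and Gsta5 added the ratio for alpha was 0.931, and 0.788 after median scaling and 1.02 after quantile normalization. With Gstm3, Gstm6, Gstm6l and Gstm7 added the ratio for mu was 0.957, and 0.809 and 1.10 after these scalings. The wider sums of GST genes were chosen after seeing the data. The mu class made up 53.4%, 61.8% and 56.7% of the summed FPKM of the 9 GST genes in the CL rats and 47.3%, 60.5% and 59.7% in the FL rats. The theta class made up 11.4%, 7.92% and 10.9% in the CL rats and 12.8%, 8.58% and 6.72% in the FL rats. The shares of alpha, mu and theta overlapped between the groups. Together the 9 GST genes held 0.312%, 0.355% and 0.323% of all FPKM in the CL rats, and 0.196%, 0.490% and 0.521% in the FL rats. No test was made on these sums.

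The order of the mean levels in the CL group was Gstm1 (606 ± 119 FPKM), Gsta1 (292 ± 5.61), Gstt3 (58.2 ± 8.87), Gstt1 (29.9 ± 3.74), Gsta4 (24.8 ± 4.36), Gsta3 (19.2 ± 11.8), Gstt2 (17.7 ± 2.36), Gstp1 (8.96 ± 0.444) and Gstm4 (7.497 ± 0.482) (SD, n = 3). Neighbours from Gstt1 through Gsta4 and Gsta3 to Gstt2 overlapped in their ranges, and the other neighbours did not. In the FL group, Gsta3 (88.0 ± 44.0 FPKM) came next after Gstm1 (639 ± 310) and Gsta1 (249 ± 72.3), and Gstp1 (17.2 ± 1.75) came close to Gstt2 (19.0 ± 2.03). The ranges of Gstm1 and Gsta1 overlapped in the FL group, as did those of Gsta3 and Gstt3, of Gstt3 and Gstt1, of Gsta4 and Gstt2, and of Gstt2 and Gstp1. The mean of Gstm1 in the CL group was at or above that of 99.6% of all genes tested, and that of Gstm4 than 75.9%.

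The 3 FL rats differed among themselves in a pattern that recurred over the GST genes. FL2 was the lowest FL rat for 8 of the 9 GST genes, and FL12 was the highest for 7 of 9. Among all genes tested, FL2 was the lowest FL rat for 53.8% and FL12 the highest for 41.1%. FL2 was below all CL rats for 5 GST genes (Gsta1, Gsta4, Gstm1, Gstm4 and Gstt3), against 16.7% of all genes. Its level was 57.4% of the CL mean for Gsta1, 46.4% for Gstm1 and 47.0% for Gstt3, but 209% for Gsta3 and 171% for Gstp1. FL12 was above all CL rats for 6 GST genes, against 62.5% of all genes, with 659% of the CL mean for Gsta3, 210% for Gstp1 and 138% for Gstm1. FL5 had 504% for Gsta3, 193% for Gstp1 and 132% for Gstm1. With 3 rats a group, no rat was set apart by a test.

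**Figure D2:**
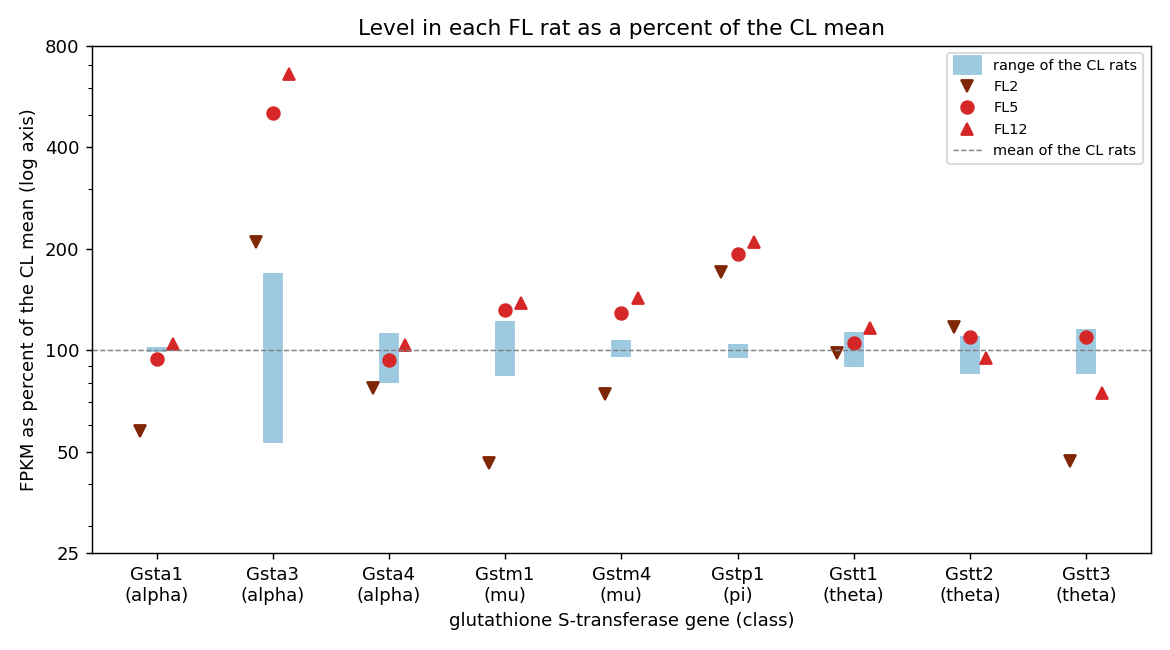
FPKM of 9 GST genes in each FL rat as a percent of the mean of the CL rats, on a log axis, with the range of the CL rats as a blue bar and their mean as a dashed line. FL2 (dark triangle pointing down) lies below the range of the controls for 5 genes, and all 3 FL rats lie above it for Gsta3 and Gstp1.

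Beyond these genes, 15 rows of other GSTs were in the table, of which 14 were tested (a second row of Gsto2, with 0.04 FPKM in CL5 and 0 in the other rats, was not). Of the 14 genes, 0 were called higher and 1 was called lower, against 9.29% and 0.935% of all genes. At an unadjusted p under 0.05, limma gave 0 higher and 3 lower (31.5% and 4.04% of all genes, as above). Their median log2 fold change was -0.20, or -0.48 relative to all genes, with 4 genes above 0 and 10 below. After median scaling and quantile normalization the median of the other GSTs was -0.41 and -0.36, or -0.49 and -0.31 relative to all genes. The gene called lower was Gstm6, a mu gene at a low level, with 0.91, 0.60 and 1.44 FPKM in the CL rats and 0.12, 0.18 and 0.49 FPKM in the FL rats. All FL rats were below all CL rats, and the log2 difference was -1.63 with a standard error of 0.45 and an adjusted p of 0.0417 (from 0.0239 to 0.157 over the alternatives). It was called in 5 of the 13 alternatives that tested it, and with a pseudocount of 1 its log2 fold change was -0.64.

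The most abundant of the other GSTs were Mgst1, the membrane-bound microsomal enzyme, and Gsta5, a further alpha gene. Mgst1 averaged 499 ± 37.7 FPKM in controls and 458 ± 38.0 FPKM in treated rats (SD, n = 3), a log2 difference of -0.12 (adjusted p = 0.65) that turned positive in 1 of 14 alternatives. Gsta5 had 248.22, 304.41 and 257.74 FPKM in the CL rats against 89.98, 220.48 and 302.58 FPKM in the FL rats, a log2 difference of -0.57 with a standard error of 0.40 and an adjusted p of 0.341. FL2 was again the lowest FL rat, at 33.3% of the CL mean. The groups did not overlap for Gstk1, the kappa-class enzyme of mitochondria and peroxisomes (46.57, 54.89 and 72.91 FPKM against 42.61, 45.59 and 34.14 FPKM), nor for Gsto1 of the omega class (17.58, 22.01 and 22.05 FPKM against 25.48, 23.19 and 23.15 FPKM), and neither passed the test (adjusted p = 0.103 and 0.236). Gstm3 had the widest spread between FL rats relative to its mean, with 0.71, 10.43 and 6.21 FPKM in these rats against 2.24, 1.46 and 0.69 FPKM in the CL rats (adjusted p = 0.283). Without FL2 it was called higher, with a log2 fold change of 2.52 and an adjusted p of 0.014, in a range over the alternatives up to 0.643. Gstk1, Gsto1 and Gstm3 were singled out after their values were seen. Gstcd, whose product is not established as a transferase, was counted apart and had a log2 fold change of 0.13 (adjusted p = 0.821). Of 23 GST genes in all, FL2 was the lowest FL rat for 15 (65.2%), against 53.8% of all genes tested.

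**Figure D3:**
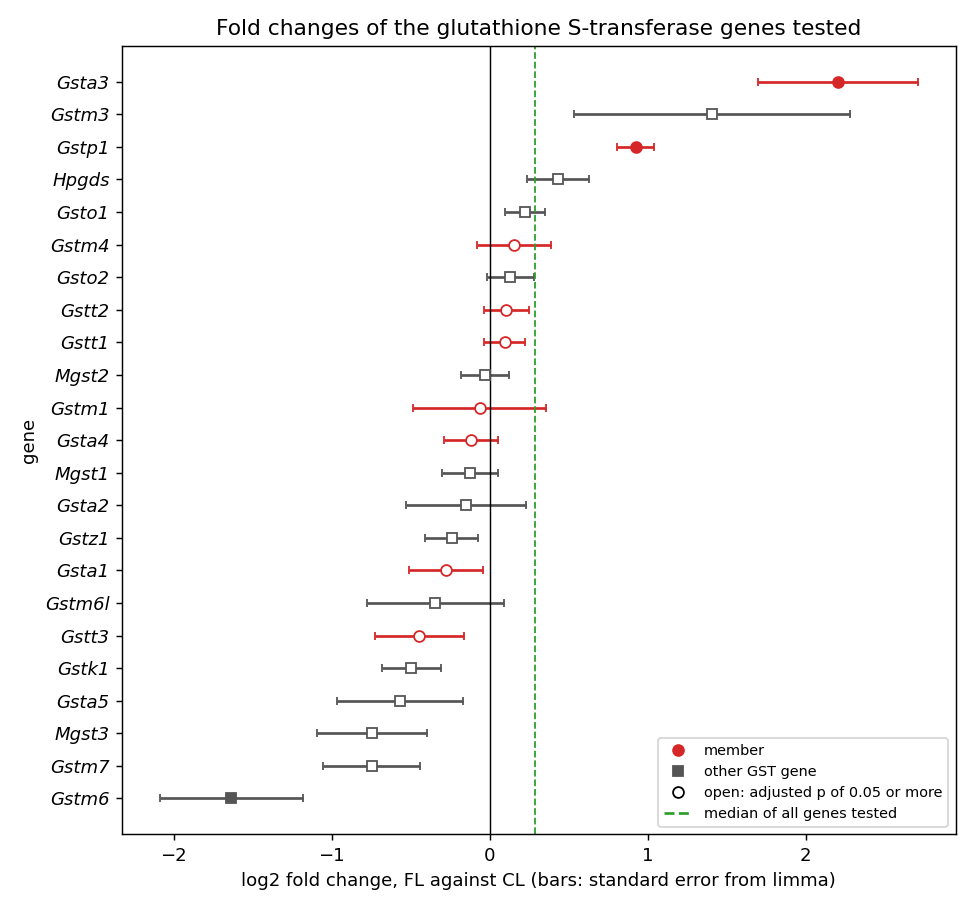
Log2 fold change of the FL against the CL group for 9 GST genes (red circles) and 14 other GST genes (grey squares), with bars for the standard error from limma, filled symbols for an adjusted p under 0.05, and a dashed line at the median of all genes tested (0.29). Gsta3 and Gstp1 lie above 0 and Gstm6 below 0 with filled symbols, and most of the other symbols lie to the left of the dashed line.

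GSTs use glutathione that the cell makes from cysteine, glutamate and glycine, and the conjugates are exported and trimmed to mercapturates. The other genes of this pathway, regulators of GST genes and markers of NRF2 activity were described in 6 lists with 65 genes tested. Of these genes, 9 were called higher and 0 lower, against 9.29% and 0.935% of all genes tested. At an unadjusted p under 0.05, limma gave 17 higher and 7 lower, against 31.5% and 4.04% of all genes. The median log2 fold change over the 65 genes was 0.20 (-0.020 after median scaling and 0.0080 after quantile normalization), or -0.08 relative to all genes (-0.10 and 0.05). Of 10 genes of synthesis and supply, 0 were called in either direction (2 higher and 1 lower at an unadjusted p under 0.05, limma). Gclc, the catalytic subunit of the rate-limiting enzyme, was 48.59, 45.95 and 49.06 FPKM in the CL rats and 24.06, 31.32 and 88.73 FPKM in the FL rats. As for Gsta1 and Gstm1, FL2 was far below the controls and FL12 above them. Gclc was singled out for its role and after its values were seen. The most abundant genes of that list were Idh1 (log2 fold change 0.06) and Cth (0.02).

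Exporters of glutathione conjugates were called higher for 3 of 7 genes and lower for 0, against 9.29% and 0.935% of all genes. After median scaling 2 exporters were called higher, and after quantile normalization 0. Of all genes tested, 826 were called higher after median scaling and 453 after quantile normalization, against 1381 on the deposited scale. Abcc3, an exporter of the basolateral membrane, rose from 2.01 ± 0.891 to 10.9 ± 7.19 FPKM (log2 fold change 2.23, adjusted p = 0.028), and Abcc5 (1.35, adjusted p = 0.00868) and Abcc4 (1.24, adjusted p = 0.0292) rose as well. The most abundant exporter, Abcc2 of the bile canaliculus, averaged 127 ± 10.7 FPKM in controls and 87.7 ± 23.6 FPKM in treated rats, and next came Abcc6 (42.0 ± 4.10 and 41.7 ± 2.64 FPKM). All 3 FL rats were below all CL rats for Abcc2, without passing (adjusted p = 0.0902). Of 14 genes of breakdown and mercapturate formation, 1 was called higher (Dpep2, 1.73) and 0 lower, against the same shares of all genes. Under either scaling 0 were called higher. The most abundant were Lap3 (0.14) and Ccbl2 (-0.39). Of 6 glutathione peroxidases, which use glutathione to reduce peroxides, 3 were called higher, against 9.29% of all genes. The same 3 were called after median scaling, and 2 of them after quantile normalization. The 3 genes were Gpx3 (5.38 ± 1.48 to 32.6 ± 14.0 FPKM), Gpx2 (0.0167 ± 0.0153 to 0.473 ± 0.278 FPKM) and Gpx7 (0.600 ± 0.07 to 3.19 ± 1.43 FPKM). The most abundant peroxidase, Gpx1, fell by 0.75 on the log2 scale, from 311 ± 26.2 to 188 ± 53.1 FPKM (adjusted p = 0.0446), short of the 2-fold limit, and Gpx4 came next (-0.28, adjusted p = 0.127).

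Of 17 genes for regulators known to act on GST genes, 0 were called in either direction. With limma, 3 were higher and 1 lower at an unadjusted p under 0.05, against 31.5% and 4.04% of all genes. Mafk, a small Maf protein that binds DNA together with NRF2, passed the adjusted p alone (4.43 ± 0.0513 to 6.60 ± 0.227 FPKM). The most abundant regulators were Hnf4a (log2 fold change -0.21) and Rxra (0.05). Of 11 markers of NRF2 activity outside the GSTs, 2 were called higher and 0 lower, against 9.29% and 0.935% of all genes. Under either scaling, 1 was called higher, against 826 of all genes after median scaling and 453 after quantile normalization. The counts at an unadjusted p under 0.05 from limma were also 2 higher and 0 lower, against 31.5% and 4.04% of all genes. Akr1b8 rose from 0.467 ± 0.0907 to 1.66 ± 0.345 FPKM and Hmox1, the heme oxygenase, from 7.82 ± 2.38 to 16.6 ± 5.11 FPKM. The median of that list was 0.26, or -0.028 relative to all genes, and 0.23 relative to all genes after quantile normalization. Its most abundant gene was Ephx1, an epoxide hydrolase, with 472.77, 671.09 and 470.56 FPKM in the CL rats and 265.76, 873.98 and 1024.88 FPKM in the FL rats, followed by Osgin1 (-0.49). FL2 was below and the other FL rats were above all controls for Ephx1, the order also seen for Gstm1 and Gstm4.

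The promoter windows of the GST genes are shown because Gsta3 and Gstp1 were the pair that passed the test and Gsta1 is of the same class as Gsta3 and lies near it on chromosome 9. A window of 300 bases, from 250 before to 50 after the start of the gene, was taken from RefSeq on the GRCr8 build for 8 of the 10 GST genes, with 9 windows in all. Gstt1 and Gstt2 had none. A search on both strands for TGACNNNGC, the core of the antioxidant response element that NRF2 binds, found it in 3 of the 9 windows, of Gsta1, Gsta3 and Gstp1, against 12.1% of 33469 windows of all genes. Outside the 9 windows it was also found for Gsta2, Gstm7 and Gstz1, which were not called higher (log2 fold change -0.15, -0.75 and -0.24). Windows of Gstm5, Mgst3l1 and Gstcd held it as well. TGANTCA, the AP-1 site, was found in the window of Gstp1 and no other of the 9, against 7.33% of all windows. Outside the 9 it was also found for Gsto1, Mgst1 and Gstm5. It reads the same class of letters on both strands, and in Gstp1 it lies within the match to the antioxidant response element core. The match starts at -61 in Gstp1, at -17 in 1 of the 2 windows of Gsta3 and at 30 in Gsta1, where the first base of the gene is 0. Windows go by RefSeq symbol, and RefSeq gives Gsta3 and Gsta5 as further names of Gsta1 and Gsta5 of Gsta3, so which window belongs to which measured alpha gene is uncertain. A match is a description of the letters only. In the sequences, written 5′ to 3′ along the strand of the gene, capitals mark the matches. The windows are chr9:31154739-31155038 on the plus strand for Gsta3, chr9:31216483-31216782 on the minus strand for Gsta1 and chr1:210769656-210769955 on the minus strand for Gstp1.
Gsta3: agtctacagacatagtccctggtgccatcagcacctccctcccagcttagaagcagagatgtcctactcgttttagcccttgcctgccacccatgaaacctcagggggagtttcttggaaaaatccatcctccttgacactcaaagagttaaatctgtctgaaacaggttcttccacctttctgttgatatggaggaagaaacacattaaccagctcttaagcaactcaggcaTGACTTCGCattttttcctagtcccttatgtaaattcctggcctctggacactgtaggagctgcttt
Gsta1: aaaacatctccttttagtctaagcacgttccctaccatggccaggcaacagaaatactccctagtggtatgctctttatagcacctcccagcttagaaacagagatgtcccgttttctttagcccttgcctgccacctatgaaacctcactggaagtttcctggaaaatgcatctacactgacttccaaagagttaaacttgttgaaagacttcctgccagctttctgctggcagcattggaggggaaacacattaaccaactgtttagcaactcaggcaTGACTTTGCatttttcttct
Gstp1: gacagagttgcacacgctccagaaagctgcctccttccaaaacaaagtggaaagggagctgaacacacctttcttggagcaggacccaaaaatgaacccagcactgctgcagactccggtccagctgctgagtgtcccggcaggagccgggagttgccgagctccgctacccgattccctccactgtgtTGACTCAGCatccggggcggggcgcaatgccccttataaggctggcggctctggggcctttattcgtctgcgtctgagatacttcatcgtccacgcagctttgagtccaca

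The genes whose pattern over the 6 rats was nearest to the most abundant GST gene of each class were found among 10534 other genes averaging 1 FPKM or more, by the root mean square difference of the centred log2 values. For Gstp1 they were Gnptab (0.0359), Lbr (0.0562) and Stk17b (0.0578), each with 3 FL rats above the CL rats. For Gsta1 they were Csad (0.054), RGD1305807 (0.0735) and Pop1 (0.0806), with FL2 far below the other rats. For Gstm1 the nearest were AABR07066826.1 (0.148), Prim1 (0.173) and a 5S_rRNA row (0.179), and for Gstt3 Cmya5 (0.144), Ddc (0.153) and Efna5 (0.162). For Gsta3, which was added after its values were seen, they were the exporter gene Abcc3 (0.265), Ppic (0.268) and Cd276 (0.288). Abcc3 had 2.13, 2.83 and 1.06 FPKM in the CL rats against 4.01, 10.22 and 18.35 FPKM in the FL rats, with the order of the rats in both groups as for Gsta3. All these nearest genes were picked by their values in these same rats, so their likeness in pattern follows from the choice and is no separate result.

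GST genes are known to differ in level between the hepatocytes around the central vein and those around the portal tract. Of 13 pericentral genes tested, 4 were called higher and 0 lower, against 9.29% and 0.935% of all genes. By the adjusted p alone, 6 were higher and 0 lower, against 16.9% and 1.94% of all genes. The median of the list was 0.73, or 0.44 relative to all genes. After median scaling 4 were called higher, and after quantile normalization 3, against 826 and 453 of all genes (1381 on the deposited scale). The genes called on the deposited scale were Rhbg (2.13), Cyp7a1 (1.80), Rnf43 (1.42) and Tbx3 (1.32). The most abundant, Cyp2e1 (0.21) and Cyp1a2 (-0.24), did not pass. Of 15 rows of periportal genes, 0 were called, and 3 were lower by the adjusted p alone, against 1.94% of all genes (Cyp2f4, adjusted p = 0.00689; Uroc1, 0.00911; Hal, 0.0347; named after their values were seen). The most abundant were Ass1 (-0.60) and Cps1 (0.00). After median scaling and after quantile normalization, 2 periportal genes were called lower. Of all genes, 181 and 231 were called lower under these scalings, against 139 on the deposited scale. The part of zonation in the levels of the GST genes was not tested.

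Some markers of cells other than hepatocytes were called higher in the FL rats, in which Gsta3 and Gstp1 were also higher, while others were not. On the deposited scale, the counts called in each list of cell markers stand against 9.29% of all genes called higher and 0.935% lower. This holds here and below. Those called higher after median scaling stand against 826 of all genes, and after quantile normalization against 453 (1381 on the deposited scale). Those at an unadjusted p under 0.05 from limma stand against 31.5% and 4.04% of all genes. Sums of a list cover all its genes in the table, also those too low to be tested. Of 10 hepatocyte markers, 0 were called (2 higher and 0 lower at an unadjusted p under 0.05, limma). The groups did not overlap for 4 that were lower in the FL rats (Alb, Apob, Hnf4a and Ttr) and 2 that were higher (Apoa1 and Tf), against 4.78% and 35.7% of all genes, and these were named after their values were seen. For Alb, at 32272 ± 1010 and 24803 ± 572 FPKM, limma gave a log2 fold change of -0.38 with a standard error of 0.98. That standard error draws on the prior variance that follows the mean, and it is not the spread of Alb over the rats alone. Their summed FPKM, led by Alb and then Tf, was 52025, 49355 and 49932 in the CL rats and 42282, 44145 and 43327 in the FL rats. Bile duct cells are a known place of Gstp1, and of 7 cholangiocyte markers 1 was called higher, Spp1 (4.53). The summed level of the 8 in the table, led by Epcam in the CL rats and by Spp1 in the FL rats, was 5.89, 10.7 and 6.32 FPKM in the CL rats and 12.8, 68.8 and 42.9 FPKM in the FL rats. Spp1 alone was 0.37, 2.81 and 0.74 FPKM in the CL rats and 7.34, 60.59 and 31.12 FPKM in the FL rats, most of the sum in each FL rat. Krt19, which defines these cells, was 0.55, 0.62 and 0.60 FPKM in the CL rats and 0.46, 0.39 and 1.06 FPKM in the FL rats, Krt7 was 0.32, 0.62 and 0.35 against 0.13, 0.09 and 0.47 FPKM, and Cldn7 was at 0 in 1 rat. Of the same list, Cftr was 0.12, 0.07 and 0.07 against 0.20, 0.34 and 0.91 FPKM, and Sox9 was 0.17, 0.42 and 0.09 against 0.32, 0.43 and 1.02 FPKM, and neither passed the test (adjusted p = 0.0745 and 0.168).

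Of 9 stellate cell or myofibroblast markers, 4 were called higher (Col1a1, 4.24; Col3a1, 2.37; Des, 2.28; Pdgfrb, 1.69), and the summed level of the 10 in the table, led by Col3a1, was 80.9, 89.7 and 80.9 FPKM in the CL rats and 198, 540 and 489 FPKM in the FL rats. Of 10 macrophage markers, 5 were called higher, with Gpnmb (4.54), Trem2 (4.46), Marco (2.06) and Cd68 (1.69) the largest, and the sum, led by Clec4f in the CL rats and by Gpnmb in the FL rats, was 148, 135 and 144 FPKM against 376, 446 and 264 FPKM. No stellate or macrophage marker was at 0 in any rat. Of 7 endothelial markers, 1 was called higher (Vwf, 1.05), with a sum, led by Kdr in the CL rats and by Lyve1 in the FL rats, of 78.6, 76.5 and 68.5 FPKM against 94.0, 79.7 and 88.2 FPKM and none at 0. Of 8 lymphocyte markers, 1 was called higher (Cd2, 1.39), with a sum over 10 genes, led by Nkg7 in the CL rats and by Cd8a and Cd79a in the FL rats, of 2.51, 2.22 and 3.28 FPKM against 6.05, 7.55 and 3.31 FPKM and Ms4a1 at 0 in 1 rat. Of 5 neutrophil markers, 3 were called higher (S100a8, 2.20; S100a9, 1.85; Csf3r, 1.72), with a sum over 8 genes, led by S100a8, of 0.47, 1.06 and 1.24 FPKM against 4.95, 2.27 and 4.83 FPKM, while Camp, Elane and Mpo were at 0 in 4 or 5 rats. Of 4 erythroid markers, 0 were called (0 higher and 1 lower at an unadjusted p under 0.05, limma), with a sum over 5 genes, led by Hbb and Hba1, of 87.8, 154 and 110 FPKM against 122, 46.2 and 48.7 FPKM and Hbb-b1 at 0 in 1 rat. Of 8 cycling markers, 2 were called higher (Birc5, 2.35; Mki67, 1.73), with a sum led by Mki67 and then, over all rats, Top2a of 3.19, 6.19 and 4.09 FPKM against 5.32, 25.6 and 21.8 FPKM and none at 0. After median scaling, the genes called higher were 1 for neutrophil and 1 for cycling markers and 0 for endothelial and lymphocyte markers, and after quantile normalization 0 in each of these 4 lists. The same 4 stellate genes and 4 of the 5 macrophage genes were called higher under either scaling. FL2, the lowest FL rat for 8 GST genes, also had the lowest sums of FL rats for the hepatocyte, cholangiocyte, stellate and cycling lists, but not for the other lists of cell markers, and for 4 of the 6 lists described with the glutathione pathway (synthesis and supply, exporters, peroxidases and NRF2 markers). The part of these cells in the levels of Gsta3, Gstp1 and the other GST genes was not tested.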

How the data were processed

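The authors trimmed the reads, aligned them with TopHat2 and deposited FPKM made from uniquely mapped reads. They name the human build GRCh38, although the gene identifiers are those of the rat. No scaling between rats is stated, and their edgeR calls were not used here. In the same table, 2 columns of values that match no sample were not used in any step. Unique mapping can drop reads shared by near-identical genes, and RefSeq gives Gsta3 and Gsta5 as other names of Gsta1, so values within the alpha and mu classes are uncertain in this respect. The values are those of the identifiers given. Total read counts were not used here. Low values of the U6 genes came in steps (72.1% to 88.6% within 0.1 of whole multiples), which put the relative depth at 1, 0.656 and 0.84 for CL5, CL6 and CL7 and at 0.667, 0.724 and 0.677 for FL2, FL5 and FL12. No pair of rats shared more than 2.87% of values above 0.

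The FL and CL groups were compared with limma 3.58.1 in R 4.3.3 on log2(FPKM + 0.1), which understates changes of low genes, with a prior variance following the mean and Benjamini-Hochberg adjustment over the 14864 genes whose FPKM averaged 0.1 or more. The procedure was tested on simulated data. Groups came from the labels. Ratios within classes were tested by exact permutation in Python 3.11.15 with scipy 1.17.1. Alternatives were pseudocounts of 1 and 0.01, no filter or one at an average of 1 FPKM, scaling of the rats by medians or by quantiles, a prior that was robust or had no trend, no fold limit, and leaving out each rat, with the genes tested kept the same. Beside all GST genes of the set, the genes named were, in each list, up to 4 called with the largest change and the 2 most abundant, together with called other GSTs, Col1a1 and Acta2. Exceptions, chosen after their values were seen, are named in the text or are genes at 0, Krt19, Krt7, Cftr, Sox9, Nkg7 and Mafk. The GST genes and the lists were chosen with earlier results of these data known.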

Additional observations from a re-analysis of the deposited data

How the results depend on the processing

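Gsta3 and Gstp1 stayed above 0 under each of 14 alternatives, with an adjusted p under 0.05 in 9 for Gsta3, lost in 4 of the 6 that left out 1 rat, and in 14 for Gstp1. Gsta1, Gsta4 and Gstt3 stayed below 0 without passing. The number of GST genes called higher was 1 and became 0 without a trend in the prior variance and 2 without a fold limit, and ran from 0 to 2 when 1 rat was left out. Changes of sign occurred among 4 GST genes that did not pass. The log2 fold change of Gstm1 was 0.12 with quantile normalization and ran from -0.34 to 0.45 when 1 rat was left out. That of Gstm4 was -0.070 with median scaling and -0.099 with quantile normalization and ran from -0.027 to 0.44 when 1 rat was left out. That of Gstt1 was -0.13 and -0.027 under the same scalings. That of Gstt2 was -0.12 and -0.055, and ran from -0.0066 to 0.19 when 1 rat was left out. The number of other GSTs called lower was 1 and became 0 with a pseudocount of 1, no filter, a mean FPKM of at least 1 or no trend, and ran from 0 to 2 when 1 rat was left out, with Gstm7 and Mgst3 in place of Gstm6 without FL5. The number called higher was 0, and 1 without FL2. Of the 9 genes of the glutathione lists called higher, 3 were kept with quantile normalization. The FL to CL ratio of the pi class was 1.63 with median scaling and 1.66 with quantile normalization.

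Of all genes, 1381 were called higher and 139 lower, so that 90.9% of calls were higher, against 82.0% with median scaling and 66.2% with quantile normalization. The number called higher was 462 with a pseudocount of 1, 854 with a mean FPKM of at least 1, 826 with median scaling, 453 with quantile normalization and 2518 without a fold limit, and ran from 682 to 1833 when 1 rat was left out. The number called lower was 72 with a pseudocount of 1, 231 with quantile normalization and 288 without a fold limit, and ran from 80 to 159 when 1 rat was left out. The causes were not tested. No paired analysis was possible because the groups held different rats, which had been divided at random. Total read counts were not used, so no error draws on them. The SDs are over rats, and the standard errors from limma also draw on a prior variance that follows the mean. Gstm6, under 1.5 FPKM in each rat, had log2 fold changes from -2.20 with quantile normalization to -0.64 with a pseudocount of 1. Keeping the tested genes the same when a rat was left out was decided after seeing the data and an earlier account of them. With the filter applied again, also chosen after seeing the data, the same GST genes were called for each rat left out, while the genes called higher were 740 without CL7 and 745 without FL5, and those called lower 81 without CL6 and 81 without CL7.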
